A study of Homo sapiens with 8 samples.

Results

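The HOX gene clusters were examined for CTCF peaks before and after treatment with the curaxin CBL0137. The members are all peaks of the control and CBL0137-treated peak lists in 4 windows of hg19: chr7:27000000-27400000 for HOXA, chr17:46500000-46900000 for HOXB, chr12:54200000-54550000 for HOXC and chr2:176800000-177150000 for HOXD. These windows held 53 of the 47470 peaks of control cells and 35 of the 29558 peaks of CBL0137-treated cells. They cover 38 HOX genes considered here, 10 in HOXA, 10 in HOXB, 9 in HOXC and 9 in HOXD.

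The cells were HT1080, an established human fibrosarcoma line with an activated ras oncogene, either untreated (control cells) or exposed to 3 µM CBL0137 for 6 h. CBL0137 is a DNA-intercalating anti-cancer compound, and the series asks whether it changes where CTCF binds. Each condition had 2 ChIP libraries, made with an antibody against CTCF, and 2 input libraries, 8 in all. The peak caller PePr combined the replicates of a condition, so every peak has a single fold enrichment of ChIP over input. No value per replicate and no read depth is in the lists, and therefore no spread between replicates and no p-value is given here. Intervals of shares are Wilson 95% intervals and cover counting error only.

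HOX genes encode homeodomain transcription factors that specify position along the body axis. They lie in 4 clusters that arose by duplication, so that genes of the same number in different clusters, such as HOXA9 and HOXD9, are paralogs of one group. Within a cluster all HOX genes are transcribed in the same direction, from group 13 at one end to the lowest group at the other, and their order along the chromosome follows the order in which they are used along the body. CTCF is a zinc-finger protein that, with cohesin, anchors chromatin loops, and CTCF sites between HOX genes are known to separate active from Polycomb-repressed parts of a cluster.

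The CTCF consensus was searched in the 400 bp around each peak centre on both strands. It has the fixed letters CCANNAGNNGGC, with 2 letters allowed at each of the 4 positions written N, and 1 mismatch was accepted. The 11 matches found in control peaks lying between the first and the last HOX gene of a cluster are printed from the hg19 sequence so that the letters at kept and at lost sites can be compared. Each is given 5′ to 3′ in the direction of the consensus, with the 12 consensus positions in capitals and 9 bases on either side. The 7 matches in peaks that were kept, from the highest to the lowest control fold enrichment, were:
HOXA9 to HOXA7, chr7:27200757-27200768, minus strand: aaacggcggCCAGCAGATGGCagtgtggct
HOXB9 to HOXB8, chr17:46696108-46696119, minus strand: gcagagcagCCGCTAGATGGCacccttgct
HOXD9 to HOXD8, chr2:176991933-176991944, plus strand: ggcatttggCCACTAGAGAGCgctgttgct
HOXD13 to HOXD12, chr2:176962487-176962498, minus strand: gcccaatgcCCAGGAGATGGCgagcgcgct
HOXA11 to HOXA10, chr7:27219525-27219536, minus strand: gcgcagccgCCACGAGATGGCgcacttccg
HOXA4 coding exon, chr7:27169843-27169854, minus strand: ccaggcgtcCCGGCAGGGGGCagcgccccc
HOXA6 to HOXA5, chr7:27183535-27183546, minus strand: gccctgcctCCAGCGGGTGGCgctcgagtc

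The 4 matches in peaks that were lost, in the same order, were:
HOXB13 to HOXB9, chr17:46740684-46740695, plus strand: ccggagcaaCCACCAGATGGCcctgtatgt
HOXC13 to HOXC12, chr12:54342893-54342904, minus strand: ggagagtgaCCACTAGATGGAgagtcctgt
HOXB4 to HOXB3, chr17:46639710-46639721, plus strand: acaagcattCCCCCAGATGGCcagcagggt
HOXC9 to HOXC8, chr12:54397997-54398008, minus strand: gtcccacggCCACCAGGGAGCaccccactc

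The first sequence of each set, between HOXA9 and HOXA7 and between HOXB13 and HOXB9, matched the consensus without a mismatch, and the others had 1 mismatch.

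A control peak was counted as kept if a peak of CBL0137-treated cells overlapped it by any length, and as lost otherwise. A lost peak is one without a listed peak in treated cells, which does not show that CTCF was absent there. Of the 53 HOX control peaks, 34 were kept and 19 (35.8%, interval 24.3% to 49.3%) were lost. Of all control peaks, 42.9% were lost, a value within this interval. When more than 50% of the larger peak had to overlap, 24 of 53 (45.3%) counted as lost, beside 50.7% of all control peaks. The clusters differed in their counts: 1 of 10 peaks was lost in HOXD, 6 of 20 in HOXB, 5 of 12 in HOXA and 7 of 11 in HOXC. The lost shares were 10% in HOXD (1.79% to 40.4%), 30.0% in HOXB (14.5% to 51.9%), 41.7% in HOXA (19.3% to 68.0%) and 63.6% in HOXC (35.4% to 84.8%). By any overlap, HOXD lay below the share of all peaks and its interval ended under that share. The intervals of HOXA, HOXB and HOXC included it. At more than 50% overlap of the larger peak, 2 of 10 peaks were lost in HOXD (20%) and 8 of 20 in HOXB (40%). In HOXA 6 of 12 (50%) and in HOXC 8 of 11 (72.7%) were lost, the same order, beside 50.7% of all peaks. No interval by cluster was formed at that setting. This order did not hold with an FDR of at most 1e-05 in both lists, where 1 of 4 peaks was lost in HOXC (25%), 2 of 8 in HOXD (25%), 4 of 17 in HOXB (23.5%) and 4 of 9 in HOXA (44.4%). Only 1 of the 35 treated peaks had no control peak beneath it and was counted as arisen, in HOXA, beside 8.07% of all treated peaks.

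**Figure D1:**
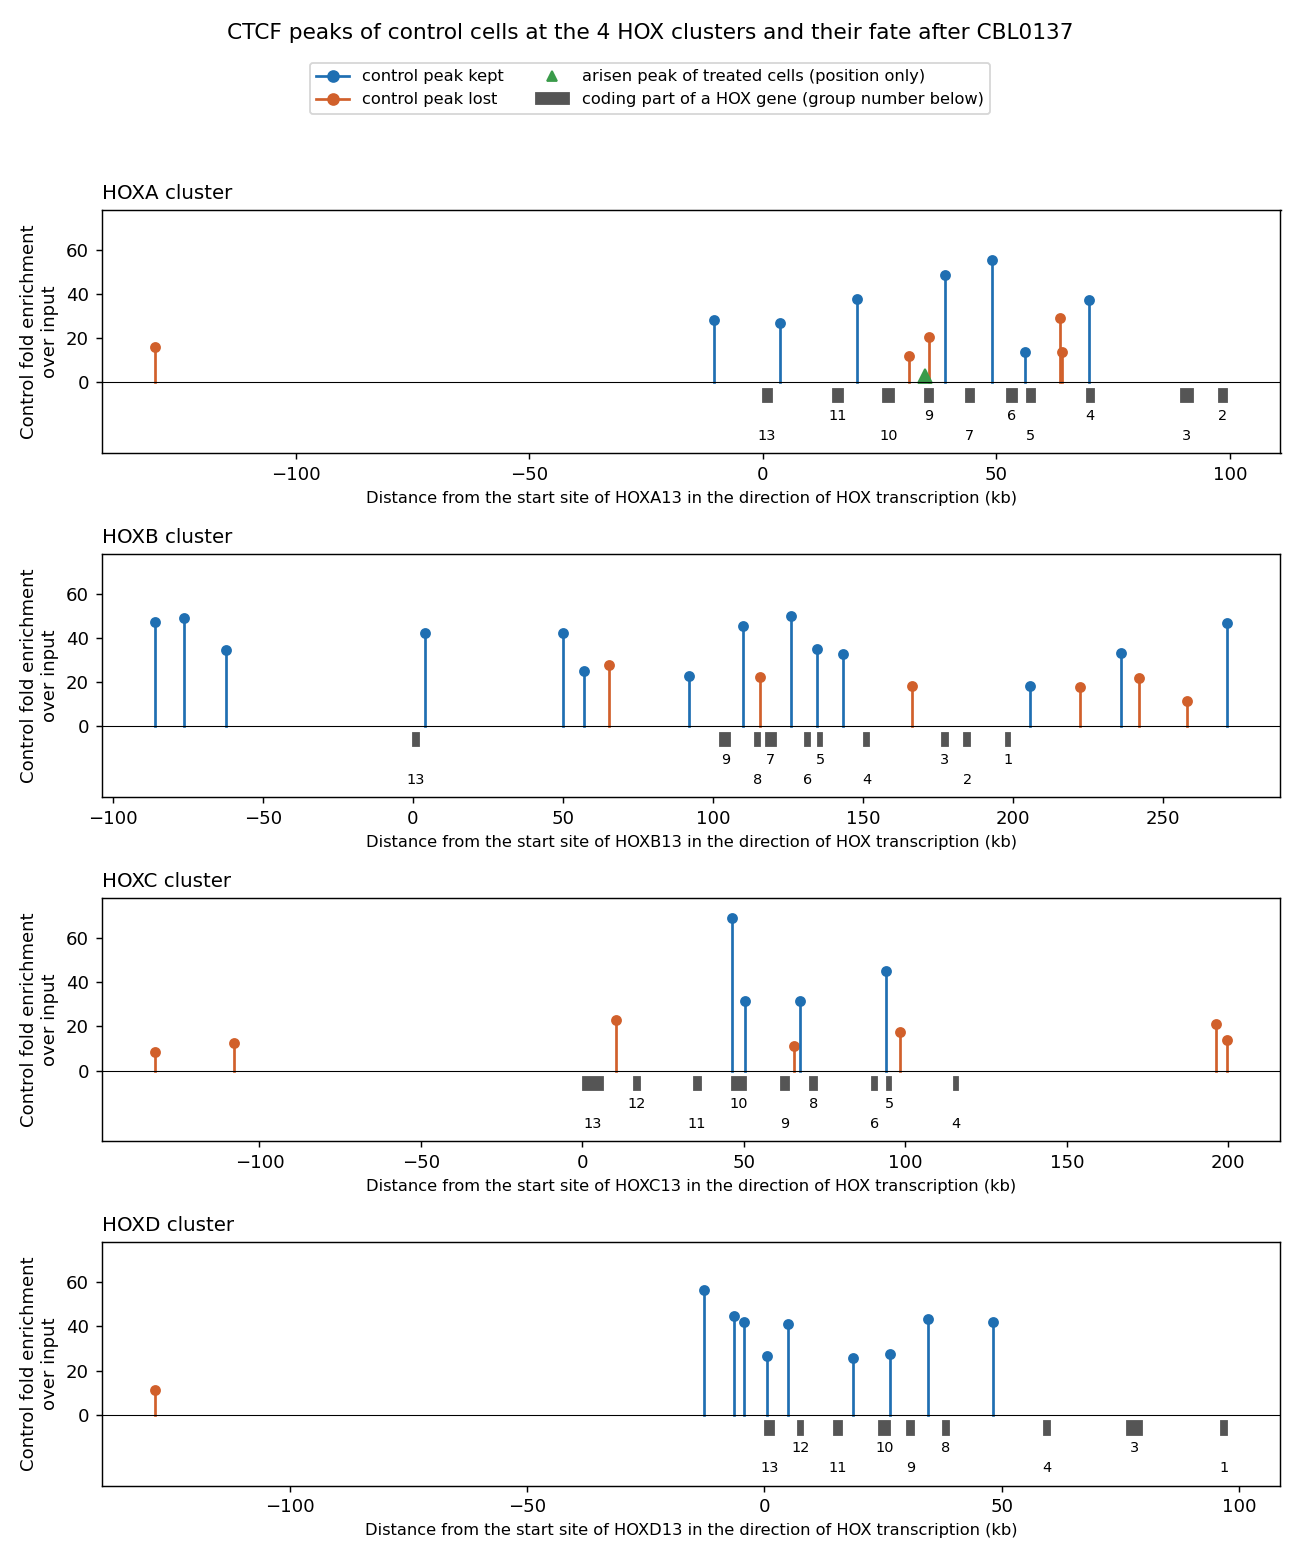
Control CTCF peaks at the HOXA, HOXB, HOXC and HOXD clusters, with the fold enrichment of ChIP over input in control cells (vertical axis) against the distance in kb from the start site of the group 13 gene in the direction of HOX transcription (horizontal axis). Blue peaks were kept and orange peaks lost, the green triangle marks the position of the arisen peak, and grey boxes are the coding parts of the 38 genes with their group numbers; in HOXD the only lost peak lies far outside the genes, whereas in HOXC lost peaks lie on both flanks.

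The windows were dense in CTCF peaks. Control cells had 3.53 peaks per 100 kb over the 4 windows, with 3 in HOXA, 5 in HOXB, 3.14 in HOXC and 2.86 in HOXD, against 1.56 per 100 kb over chromosomes 1 to 22 and X. Of the 53 control peaks, 34 were centred between the first and the last HOX gene and 19 in the flanks. Within the gene span 10 of 34 peaks were lost (29.4%, interval 16.8% to 46.2%), and in the flanks 9 of 19 (47.4%, 27.3% to 68.3%), so that the intervals overlapped. A control peak lay within 5 kb of the start site of 24 of the 38 HOX genes (63.2%), beside 34.5% of all protein-coding genes. By class these were 2 of 7 anterior genes (groups 1 to 3), 12 of 15 central genes (groups 4 to 8) and 10 of 16 posterior genes (groups 9 to 13). The 2 anterior genes were HOXA3 and HOXB3. The start sites used for them lie among central genes, between HOXA7 and HOXA6 and between HOXB5 and HOXB4. Their nearest control peaks were also those nearest to HOXA6 and HOXB5, so the same peak can count for several genes. In treated cells 22 of the 38 genes had a peak within 5 kb. The 2 genes that no longer had one were HOXB7, whose nearest peak moved from 2047 to 7722 bp, and HOXC9, from 4031 to 6006 bp. Of all protein-coding genes 27.7% had a treated peak within 5 kb.

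In the HOXA cluster, all 12 control peaks lay on the HOXA4 to HOXA13 side, and neither list had a peak nearer to HOXA2, a gene of hindbrain and branchial arch patterning, than 27549 bp. From the anterior end, the first peak was kept in the coding exon of HOXA4 at chr7:27169651-27170050, with a fold enrichment of 37.1 in control cells and 40.1 in treated cells, each over its own input. Fold enrichments of the lists were not divided by each other, because each list was scaled separately. Next came a pair of lost peaks between HOXA5 and HOXA4, in introns of long transcripts of HOXA3 and HOXA-AS3. They were at chr7:27175501-27175700, with a control fold enrichment of 13.5, and at chr7:27175951-27176400, with 29.0, which was the highest of all lost HOX peaks. The nearest treated peak was 5500 bp from the first of this pair, and both overlapped a site that the authors' direct comparison lists as higher in control cells.

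The 3 following peaks were kept. The peak just upstream of HOXA5, a gene of lung development, at chr7:27183451-27183600 was weak in control cells, at 13.8, and had a fold enrichment of 21.2 in treated cells. The peak between HOXA7 and HOXA6 at chr7:27190301-27190800 had the highest control fold enrichment of the cluster, 55.2, and 50.3 in treated cells. Its best match to the consensus had 3 mismatches. The peak between HOXA9 and HOXA7 at chr7:27200551-27201000, whose exact consensus match is printed first above, had 48.5 in control and 56.3 in treated cells and the same width of 450 bp in both.

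HOXA9, a posterior gene known from normal and leukemic blood formation, was the only place in the 4 clusters where one peak was lost and another arose. The control peak in its intron at chr7:27203851-27204200, with a fold enrichment of 20.6, had no overlapping peak in treated cells and lay at a site listed as higher in control cells. In treated cells a peak of 150 bp with a fold enrichment of 13.9 lay 700 bp away in its coding exon at chr7:27204901-27205050, 180 bp from the start site. The FDR of this arisen peak was 0.000898 in the authors' list, and the peak was absent when an FDR of at most 1e-05 was required. Between HOXA10 and HOXA9, the narrow control peak at chr7:27208251-27208350, with a fold enrichment of 11.7, was lost as well.

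Toward the posterior end of HOXA, peaks were kept between HOXA11 and HOXA10 at chr7:27219301-27219700 and in the untranslated exon of HOXA13, a gene of distal limb and urogenital development, at chr7:27235801-27236250. Their fold enrichments were 37.7 and 26.7 in control cells, and 57.8 and 35.5 in treated cells. In the flank beyond HOXA13, the peak at chr7:27249951-27250500 had 28.0 in control cells and was kept only as a peak of 100 bp, down from 550 bp, with 12.5 in treated cells. The remaining flank peak, 130016 bp from the start site of HOXA13, had 16.0 and was lost.

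In the HOXB cluster, 11 of the 20 control peaks lay within the gene span, 8 of them kept. At the anterior end, in introns of HOXB3 transcripts, a peak between HOXB4 and HOXB3 at chr17:46639601-46639800 with a control fold enrichment of 18.5 was lost, with the nearest treated peak 22950 bp away. The peak between HOXB5 and HOXB4 at chr17:46662601-46663100 was kept, but narrowed from 500 to 200 bp, with a fold enrichment of 32.9 in control and 15.8 in treated cells. The control peak overlapped a site higher in control cells.

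Among the central HOXB genes, the peak at chr17:46671251-46671600, 285 bp from the start of HOXB5, kept its width of 350 bp, with 34.8 in control and 45.4 in treated cells. The peak between HOXB7 and HOXB6 at chr17:46679801-46680400 had the highest control fold enrichment of the cluster, 49.8, and 25.7 in treated cells. The peak in the untranslated exon of HOXB8 at chr17:46690301-46690550, with 22.1, was lost. That between HOXB9 and HOXB8 at chr17:46695851-46696300 was kept, with 45.4 in control and 59.2 in treated cells.

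HOXB13, a gene of prostate and tail bud development, is separated from HOXB9 by a long interval, which held 5 control peaks in all. The peak 10256 bp from the start of HOXB9, at chr17:46713801-46714150 in LINC03057, was kept, with 22.9 in control and 29.7 in treated cells. Of 3 peaks in introns of LINC02086, that at chr17:46740601-46740800 was lost, although it carries the exact consensus match printed above and had a control fold enrichment of 27.8. Its neighbors at chr17:46749001-46749400 and chr17:46755751-46756250 were kept, with 24.99 and 42.2 in control and 39.4 and 42.5 in treated cells. Their best matches to the consensus had 2 mismatches, but all 3 peaks passed the score of the weight matrix described below. The peak at chr17:46801951-46802200, in an untranslated exon of PRAC2 next to HOXB13, was kept with the same limits in both lists and with 42.4 in control and 43.1 in treated cells.

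The flanks of HOXB held 9 control peaks, 6 of them kept. On the HOXB13 side, 3 kept peaks lay in introns of TTLL6, which encodes a tubulin-modifying enzyme, the strongest at chr17:46882151-46882650 with 48.9 in control and 28.2 in treated cells. On the HOXB1 side, the strongest at chr17:46534501-46535000 had 46.6 in control and 46.8 in treated cells. The 3 lost peaks were all on the HOXB1 side, with control fold enrichments from 11.6 to 21.9.

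In the HOXC cluster, 4 of the 7 control peaks within the gene span were kept, and these were the only treated peaks of the window. The strongest control peak of all 4 clusters, with 68.9, lay 154 bp from the start of HOXC10 in an exon of HOXC-AS3, at chr12:54378601-54378950, and had 49.6 in treated cells. A second peak of HOXC10, in its coding exon at chr12:54382951-54383250, shrank from 300 to 150 bp, with 31.5 in control and 9.42 in treated cells. The peak between HOXC9 and HOXC8 at chr12:54399701-54400150 had 31.7 in control and 44.8 in treated cells. The peak 308 bp from the start of HOXC5, between HOXC6 and HOXC5 at chr12:54426301-54426750, had 45.1 in control cells and the second highest value of all HOX peaks in treated cells, 72.9.

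The lost peaks of HOXC were weak. Within the gene span they lay between HOXC13 and HOXC12 at chr12:54342851-54342950 (control fold enrichment 23.01), between HOXC9 and HOXC8 at chr12:54397901-54398050 (11.1) and between HOXC5 and HOXC4 at chr12:54430701-54430900 (17.4). After treatment the nearest peak to the start of HOXC13 was 46161 bp away, and that to HOXC12 30089 bp. All 4 flank peaks were lost. The stronger one on the HOXC13 side, at chr12:54224551-54224650, had 12.4, and that on the HOXC4 side, in an intron of LINC02381 at chr12:54528851-54528950, had 21.0.

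In the HOXD cluster, all 6 control peaks within the gene span were kept. For 0 lost among 6 the Wilson interval ends at 39.0%, and a limit of 3 counts is 50%. The same limit is given below for the strongest deciles, but not for every count of 0. They lay in the coding exon of HOXD13 at chr2:176957901-176958050, between HOXD13 and HOXD12 at chr2:176962251-176962700, between HOXD11 and HOXD10 at chr2:176976001-176976300, in the coding exon of HOXD10 at chr2:176983701-176983950, between HOXD9 and HOXD8 at chr2:176991751-176992150 and between HOXD8 and HOXD4 at chr2:177005151-177005850. Their control fold enrichments were 26.4, 41.2, 25.5, 27.3, 43.2 and 42.1 in this order. In treated cells the values at the same peaks were 11.6, 35.0, 20.9, 13.1, 43.4 and 52.2. Past the last of these peaks, neither list had a peak up to the end of the window, so that HOXD1 and HOXD3, the anterior genes, had no peak within 16534 bp of their start sites.

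On the other side of HOXD13, which acts in digit formation, 3 control peaks lay within 12698 bp and all were kept. The strongest was in an untranslated exon of EVX2, a homeobox gene beside HOXD13, at chr2:176944551-176944950. It had 56.6 in control cells and 75.4 in treated cells, widened from 400 to 650 bp, and was the only HOX peak at a site that the authors' comparison lists as higher in treated cells. The other two, at chr2:176950951-176951300 and chr2:176953001-176953400, had 44.5 and 41.8 in control cells and 17.8 and 20.4 in treated cells, and both overlapped sites higher in control cells. The only lost peak of the window, at chr2:176829001-176829250 with a control fold enrichment of 11.1, lay in a coding exon of LNPK, 128323 bp from HOXD13.

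Kept HOX peaks were on the whole stronger in control cells than lost ones, but their values overlapped. The kept peaks had a median control fold enrichment of 39.5, with a range from 13.8 to 68.9, and the lost peaks of 17.4, with a range from 8.42 to 29.0. In the range shared by both lay 9 of the 34 kept and 11 of the 19 lost peaks. Over all control peaks the medians were 34.9 and 20.6. Kept peaks were also wider, with a median of 400 bp against 200 bp for lost HOX peaks, and 350 bp against 200 bp over all peaks.

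**Figure D2:**
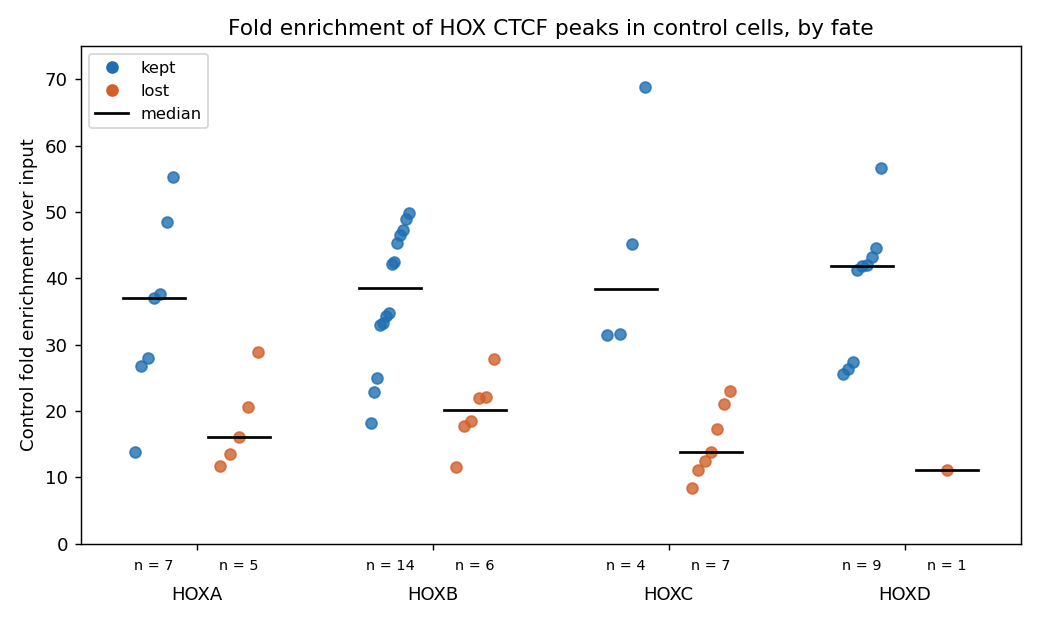
Fold enrichment over input in control cells (vertical axis) of each HOX control peak, by cluster and fate, with the number of peaks under each column and the median as a black line. No lost peak exceeds 29.0, and the kept peaks of HOXC and HOXD lie entirely above the lost ones of the same cluster.

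Deciles of fold enrichment were formed over all control peaks, decile 1 being the weakest and 10 the strongest. In deciles 1 to 5, the weaker ones, 18 of 27 HOX peaks were lost (66.7%, interval 47.8% to 81.4%), near the 65.7% of all peaks. In deciles 6 to 10, 1 of 26 HOX peaks was lost (3.85%, 0.682% to 18.9%), where 20.1% of all peaks were lost. In the 4 strongest deciles, none of 23 HOX peaks was lost, for which the Wilson interval ends at 14.3% and the limit of 3 counts is 13.04%. Of all peaks in these deciles 16.7% were lost, but the HOX peaks were spread unevenly over them. Decile 9 held 11 and decile 10 held 6, where 13.5% and 7.60% of all peaks were lost. Decile 7 held 4 and decile 8 held 2, where 26.9% and 18.7% were lost. If each HOX peak is given the lost share of its own decile, the mean is 42.2% over the 53 peaks, 28.8% for HOXD, 37.5% for HOXB, 47.3% for HOXA and 57.3% for HOXC, which is the order of the observed shares. When the control list was cut from the weak end to the length of the treated list, 2 of 33 HOX peaks were lost (6.06%), beside 24.6% of all these peaks.

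**Figure D3:**
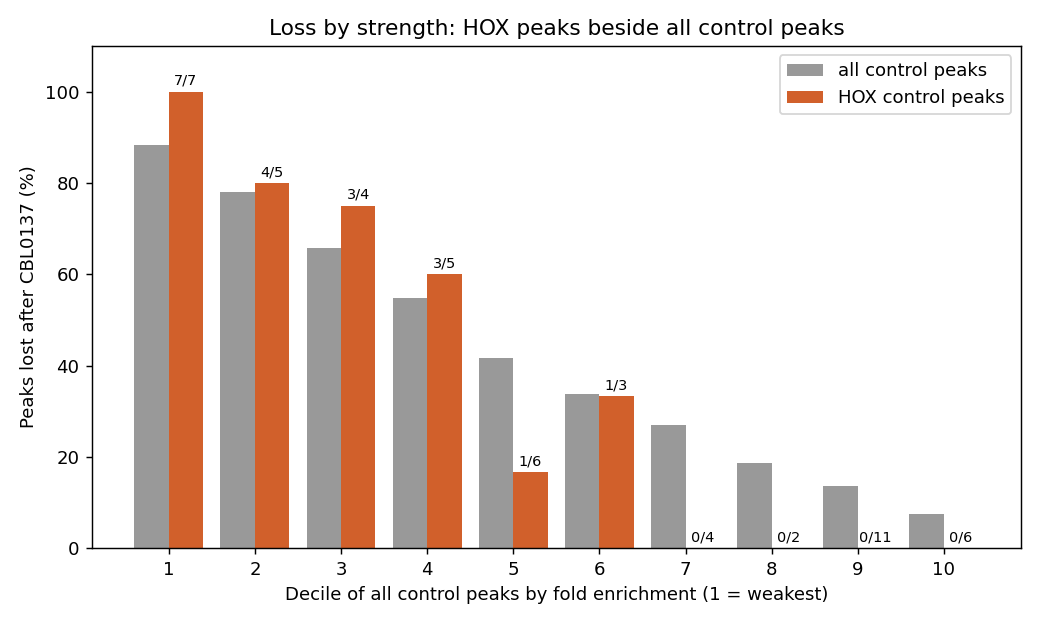
Share of control peaks lost after CBL0137 (vertical axis, %) in each decile of control fold enrichment (horizontal axis), for all control peaks in grey and for HOX control peaks in orange, with lost and total HOX peaks above each bar. HOX loss ends after decile 6, where 1 of 3 peaks was lost.

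The sites of the authors' direct comparison gave a further readout of the same libraries, of which only the positions were used here. Sites higher in control cells overlapped 23 of the 53 HOX control peaks (43.4%), beside 51.2% of all control peaks. They overlapped 14 of the 19 lost HOX peaks (73.7%) and 9 of the 34 kept ones (26.5%), beside 78.4% and 30.8% over all peaks. The 5 lost peaks without such a site were the one between HOXA10 and HOXA9, the one between HOXB4 and HOXB3, the weaker one between HOXC9 and HOXC8 and both peaks on the HOXC13 flank, with control fold enrichments of 8.42 to 18.5. At a site higher in treated cells lay 1 of the 35 treated peaks (2.86%), that in EVX2, beside 7.25% of all treated peaks.

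Most kept peaks were narrower after treatment. Of the 34, 25 narrowed (73.5%), 7 were unchanged in width and 2 widened, at HOXA5 and at EVX2. Of all kept peaks 62.4% narrowed and 15.0% widened, and the median change was -50 bp at HOX and over all. Widths of the HOX peaks are multiples of 50 bp, so this median and the widening at HOXA5, by 50 bp, are the smallest change the lists can show there. Peaks that lost at least 300 bp were that between HOXB5 and HOXB4, one in TTLL6, from 750 to 300 bp, and that beyond HOXA13, and their overlap with the treated peak was 40% of the larger peak or less.

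Because fold enrichments cannot be compared between the lists, the rank of each kept peak within its own list was compared. The percentile of a peak is its place by fold enrichment among all peaks of a list, from 0 for the weakest to 100 for the strongest. The lists differ in length, and mostly weak peaks have no counterpart in the treated list, so a percentile can fall without a change at the peak. Over all kept peaks the median change from the control to the treated list was -9.21 points, and 35.2% rose in percentile. Of the 34 kept HOX peaks 14 rose (41.2%), and the median change was -2.87 points. Within the gene span 12 of 24 rose, with a median of 0.686 points, and in the flanks 2 of 10 rose, with a median of -38.3 points. Percentiles were therefore also taken over the 27107 kept peaks alone, the same peaks before and after treatment, an alternative chosen after seeing the data. On this scale 19 of the 34 HOX peaks rose (55.9%), beside 51.2% of all kept peaks, with 16 of 24 in the gene span and 3 of 10 in the flanks. The median change was 8.93 points in the gene span and -24.5 points in the flanks, and 0.690 points over all kept peaks. By cluster 5 of 7 peaks rose in HOXA, 8 of 14 in HOXB, 2 of 4 in HOXC and 4 of 9 in HOXD.

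**Figure D4:**
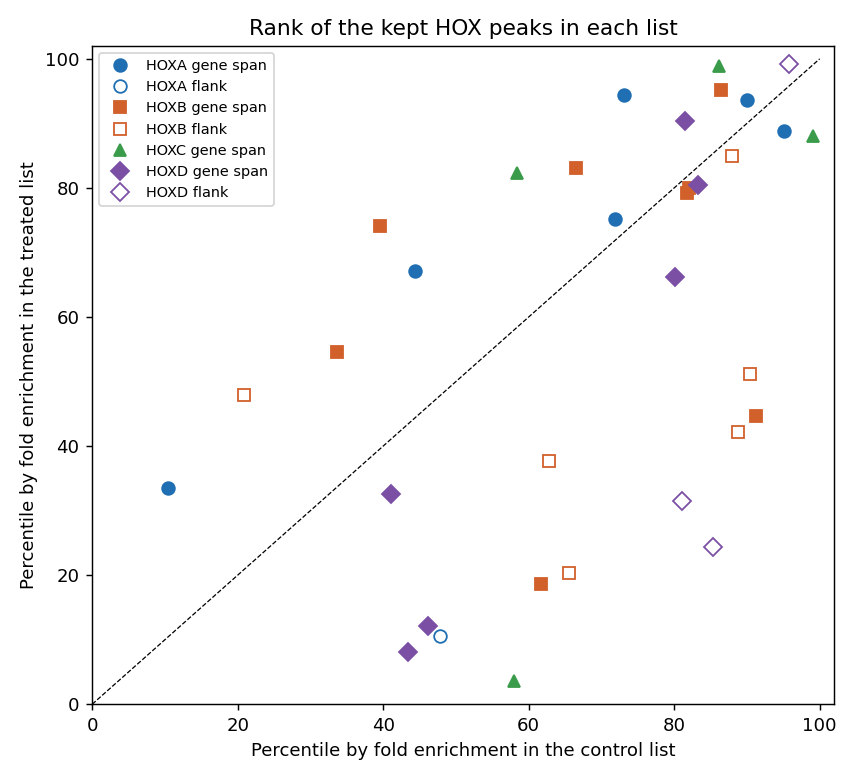
Percentile by fold enrichment of the 34 kept HOX peaks in the control list (horizontal axis) and in the treated list (vertical axis), by cluster, with filled symbols within the gene span and open symbols in the flanks. The dashed line marks equal percentiles, from which peaks can depart because the lists differ in length; 14 peaks lie above it, and 8 of the 10 flank peaks lie below it.

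Peaks at matching places of different clusters were set side by side, a comparison chosen after their values were seen. Between the group 9 gene and the next HOX gene, each of the 4 clusters had a kept peak. Its percentile among the kept peaks was 83.8 before and 93.0 after treatment in HOXA, 78.4 and 94.7 in HOXB, 39.7 and 80.8 in HOXC, and 73.5 and 78.9 in HOXD. In the whole lists the HOXD peak went the other way, from 83.3 to 80.5. In HOXC this interval also held a lost peak. Between the group 6 and group 5 genes, which exist in HOXA, HOXB and HOXC, each cluster had 1 control peak, and all 3 were kept. These peaks lay 226, 308 and 285 bp from the start of HOXA5, HOXC5 and HOXB5, and their percentiles among the kept peaks were 2.23, 77.9 and 49.8 before and 30.5, 98.8 and 81.7 after treatment. The 4 peaks in coding exons of HOX genes, in HOXA4, HOXC10, HOXD10 and HOXD13, were all kept. Their percentiles among the kept peaks were 56.8, 39.1, 25.7 and 23.2 before and 73.1, 3.03, 10.5 and 6.92 after treatment. The windows held 5 control peaks in coding exons, and the other, in LNPK, was lost. Of all control peaks 42.9% were lost.

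The DNA under HOX peaks was GC-rich. The 500 bp around the centre had a median GC content of 55.4% for HOX control peaks, against 45.6% for all control peaks, and a median ratio of observed to expected CpG dinucleotides of 0.546 against 0.227. Kept HOX peaks had a median GC content of 56.1% and a CpG ratio of 0.691, and lost HOX peaks 47.8% and 0.221. Within the gene span kept peaks had 56.5% and 0.711 and lost peaks 53.9% and 0.343. In the flanks these were 55.5% and 0.487 for kept and 45.4% and 0.205 for lost peaks. Inside the HOXC gene span lost peaks had the higher GC content, 55.4% against 53.3%. In HOXA and HOXB it was lower than in kept peaks, and HOXD had no lost peak there. Over all control peaks the kept ones had 48.2% and 0.270 and the lost ones 43.0% and 0.182. The part of base composition in the fate of the peaks was not tested.

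Among the 53 HOX control peaks 19 held the consensus with 1 mismatch or none (35.8%, 24.3% to 49.3%), beside 49.0% of all control peaks and 2.81% of windows 10 kb away from control peaks. At the HOX clusters, kept and lost peaks carried a match in similar shares, 12 of 34 (35.3%, 21.5% to 52.1%) and 7 of 19 (36.8%, 19.1% to 59.0%). Over all peaks the shares were 62.2% of kept and 31.5% of lost peaks, and the share of kept HOX peaks had an interval that ended under the former. With a weight matrix built from control peaks outside the windows, at a score that 3% of the windows 10 kb away pass, 18 of 34 kept peaks (52.9%, 36.7% to 68.5%) and 7 of 19 lost peaks (36.8%, 19.1% to 59.0%) had a match. Over all peaks these shares were 77.7% and 47.0%, and of all HOX control peaks 25 of 53 (47.2%) passed, beside 64.5% of all control peaks. A peak without a match lacks only these letters within 400 bp, and nothing follows from it for CTCF itself. Matches farther from the centre of a wide peak were missed, so these shares can be too low. The control peak of 750 bp in TTLL6 scored 10.9, under the matrix limit of 11.3. The treated peak inside it, with another centre, scored 17.9. Of 4 exact matches, 1 was under a kept peak, between HOXA9 and HOXA7, and 3 were under lost peaks. These lay between HOXB13 and HOXB9, in LNPK and in the stronger peak on the HOXC13 flank. The peaks in LNPK and on the HOXC13 flank were in decile 1, where 88.2% of all control peaks were lost. The fate of exact matches over all control peaks was not counted, so the 3 of 4 lost have no share to be set beside. They are listed only as a description of these peaks. In HOXC none of the 4 kept peaks had a match with at most 1 mismatch, but that between HOXC6 and HOXC5 passed the weight matrix score.

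The direction of the printed matches was read relative to HOX transcription, also after the values were seen. Within the gene span, 6 of the 7 matches of kept peaks read in the direction of HOX transcription, the exception being that between HOXD13 and HOXD12, and the 4 matches of lost peaks read against it. In the flanks the order was the other way, since 2 of 5 matches of kept peaks and 3 of 3 matches of lost peaks read in the direction of HOX transcription. With the weight matrix, 8 of 12 kept and 0 of 3 lost peaks of the gene span read in the direction of HOX transcription. These counts are few and are given as a description.

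HOX proteins bind DNA together with TALE homeodomain cofactors, and CDX proteins act upstream of HOX genes. Of 11 such genes considered, 6 had a control peak within 10 kb of the start site, with 10 control peaks in all, of which 8 were kept and 2 lost. Of all protein-coding genes 48.6% had a control peak within 10 kb, and of the control peaks within 10 kb of any such gene 34.3% were lost. Among the 8 TALE cofactor genes, MEIS1, MEIS2, MEIS3 and PKNOX2 had control peaks, of which 4 were kept and 2, at MEIS2 and MEIS3, were lost, whereas PBX2, PBX3, PBX4 and PKNOX1 had none. PBX4 had 1 peak in treated cells. At CDX1 3 peaks and at CDX2 1 peak were kept, and CDX4 had none.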

How the data were processed

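CTCF ChIP-seq of control and CBL0137-treated HT1080 cells was analysed from peak lists. The authors placed reads on hg19 with Bowtie2 2.2.3, dropped ambiguously placed reads by an alignment flag and duplicates with SAMtools 1.5, and called peaks with PePr in windows of 100 bp at a p-value cutoff of 0.05, with the replicates of a condition together. The labels describe paired-end and the methods single-end reads. The deposited columns hold positions, a score, which was not used, a fold enrichment (a ratio of ChIP over input), a p-value, which was not used, and an FDR. For the differential lists of the authors only positions were used; their fold and p-value columns were not. Depth per library is not in the lists.

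Fates were computed here by any overlap. Genes were those of GENCODE v44lift37 on GRCh37, with 1 canonical transcript each; a peak was placed by its centre among coding parts. Peaks outside chromosomes 1 to 22 and X (28 in each list) had no sequence measures. The weight matrix had 20 positions and came from 23234 peaks. Within the gene span every peak is named, and on each flank the strongest peak, besides every arisen peak; other flank peaks given by position or host gene were picked after their values were seen. One gene of the cofactor list is not reported here. Routines were tested on simulated data. Members and lists were chosen with earlier results of these data known. The tools were pysam 0.24.0 for sequences, scipy 1.17.1 for intervals, matplotlib 3.10.9 for figures, and pandas 2.3.3 and numpy 2.4.6 under Python 3.11.15.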

Additional observations from a re-analysis of the deposited data

How the results depend on the processing

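No paired analysis was possible because each list combines the replicates of a condition; for the same reason no replicate could be left out. The share of HOX control peaks lost, 35.8%, lay between 28.9% and 45.3% under the other overlap rules, FDR and fold thresholds and within the gene span. Over all control peaks the share under these settings lay between 42.3% and 50.7%. With the control list cut from the weak end to the length of the treated list, the HOX share was 6.06% in all, beside 24.6% of all these peaks. By cluster it was 14.3% in HOXA (1 of 7) and 7.69% in HOXB (1 of 13). In HOXC (0 of 4) and HOXD (0 of 9) it was 0%. All 7 lost peaks of HOXC and the 1 of HOXD were weaker than the cut, so both values of 0% come from the cut itself. At an FDR limit of 1e-05 the HOXC share was 25%, and the HOXD share was 0% within the gene span. Arisen peaks numbered 6 of 35 when more than 50% of the larger peak had to overlap, beside 6140 of all 29558 treated peaks. With an FDR limit of 1e-05 in the treated list they numbered 0 of 27, beside 480 of all 20867 treated peaks within that limit. The cause of these changes was not tested. Consensus matches were found in 7.55% of HOX control peaks without a mismatch and in 73.6% with at most 2, beside 13.9% and 83.6% of all control peaks. The 53 control and 35 treated peaks fell to 38 and 27 at an FDR of at most 1e-05. Percentiles over kept peaks alone, chosen after seeing the data, gave 19 rather than 14 of 34 kept peaks with a rise. Shares of so few peaks have wide intervals.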
